A study of Mus musculus with 30 samples.

Results

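The uterus of wild-type mice was examined 24 h after estradiol (E2) and 24 h after saline vehicle, on 3 microarrays of each group, which are 6 of the 30 arrays of the series. These arrays were taken by their titles. All animals were pre-pubertal females 21 days old, and the wild-type groups carried no altered allele. E2 was injected into the peritoneum as 250 ng in 100 ul of saline, and the vehicle animals received 100 ul of saline. Whole uterus was the source of the RNA, of which 300 ng per sample was labelled for an Affymetrix mouse array that reads the whole length of each transcript. The other arrays used here for comparison came from wild-type uterus 2 h after the same E2 dose, from wild-type uterus 24 h after 3 injections of IGF1, insulin-like growth factor 1, at 50 ug in PBS, and from uterus of mice without functional estrogen receptor alpha (an exon 3 deletion, called KO here) 24 h after E2 or vehicle. A vehicle group was measured only at 24 h. Whether the 3 arrays of a group came from separate animals or pools is not stated by the labels. Every p-value below therefore measures only spread between arrays of the same group, estimated for each gene over all 30 arrays of the series.

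Estradiol enters the cell, binds estrogen receptor alpha and changes transcription at the genes to which the receptor is recruited. In the immature uterus the hormone is known for an early phase, with transcription factors and growth factors induced and water taken up, and a later phase in which the luminal and glandular epithelium copies its DNA, divides and turns into a secretory lining. The stroma below it remodels its collagen and sends growth factors such as IGF1 to the epithelium. In an extract of whole tissue, more cells of a type and more RNA per cell cannot be told apart.

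After 24 h of E2, 5056 of the 30142 genes tested were higher than after vehicle (16.8%) and 4009 were lower (13.3%), which is 30.1% called in all, by limma with a Benjamini-Hochberg adjusted p below 0.05. Levels below are the deposited log2 values, and changes are differences of group means ± SE with n = 3 arrays a group. The SE rests on the spread shared by all 10 groups, KO and IGF1 groups among them. The words "at least" mark a fold against background where all 3 arrays of the dimmer group were at or below it. The rises were the larger changes, with 2391 genes (7.93%) up at least 2-fold and 816 (2.71%) down at least 2-fold. The median change over all genes was -0.101 on the log2 scale, and bringing every array to the same median moved it by 0.11 and the share of higher genes among the called ones from 55.8% to 69.6%. The lower count is the less stable, being 2587 without vehicle replicate 1 and 2547 without E2 replicate 3. Of the genes called lower, 1040 were at or below background on all 6 arrays, background being the 95th percentile of the olfactory receptor genes of that array. Without such genes 7931 calls were left, of which 62.6% were higher. The 3 arrays of each group did not overlap for 21.0% of the genes in the upward direction and for 21.4% in the downward direction.

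Single arrays of both groups stood apart from their replicates. Vehicle replicate 1 read the inactive-X transcript Xist at 10.16 on the log2 scale against 17.25 to 18.12 on the other 5 arrays, carried a median of 9.25 over the 5S ribosomal RNA genes against 6.18 to 7.17, and received the lowest array weight of the series at 0.166. Without it 7122 genes were called, 63.7% of them higher, and 6434 of them were also called with it. Among the E2 arrays, replicates 2 and 3 carried keratins of stratified epithelium that replicate 1 did not. Keratin 5 was at 6.78, 14.34 and 14.00 on the 3 E2 arrays, so results that rest on such genes are given for replicate 1 alone as well. With replicate 1 as the only E2 array, assumed to vary like the other groups, 3379 genes were called and 73.2% of them were higher.

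Markers of uterine epithelium were higher on every E2 array than on any vehicle array. The mean log2 level of the 17 epithelial markers was 8.59, 8.81 and 8.56 after vehicle and 10.96, 10.99 and 10.92 after E2, and 15 of the 17 rose with a median change of 2.65. Stromal markers lay between 10.74 and 11.38 after vehicle and between 11.59 and 11.82 after E2, with 4 of 13 higher and 1 lower. Smooth muscle markers lay between 12.40 and 13.03 and then between 13.28 and 13.44, with 2 of 13 higher and 1 lower. None of these uterine markers was at or below background on all 6 arrays. Macrophage markers were between 8.49 and 8.74 after vehicle and between 8.43 and 8.76 after E2, with 0 higher and 1 lower by limma, and 6 of the 12 neutrophil markers, among them the granule genes Mpo and Elane, were at or below background on all 6 arrays. How far the share of epithelial RNA moved the genes described below was not tested.

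**Figure D1:**
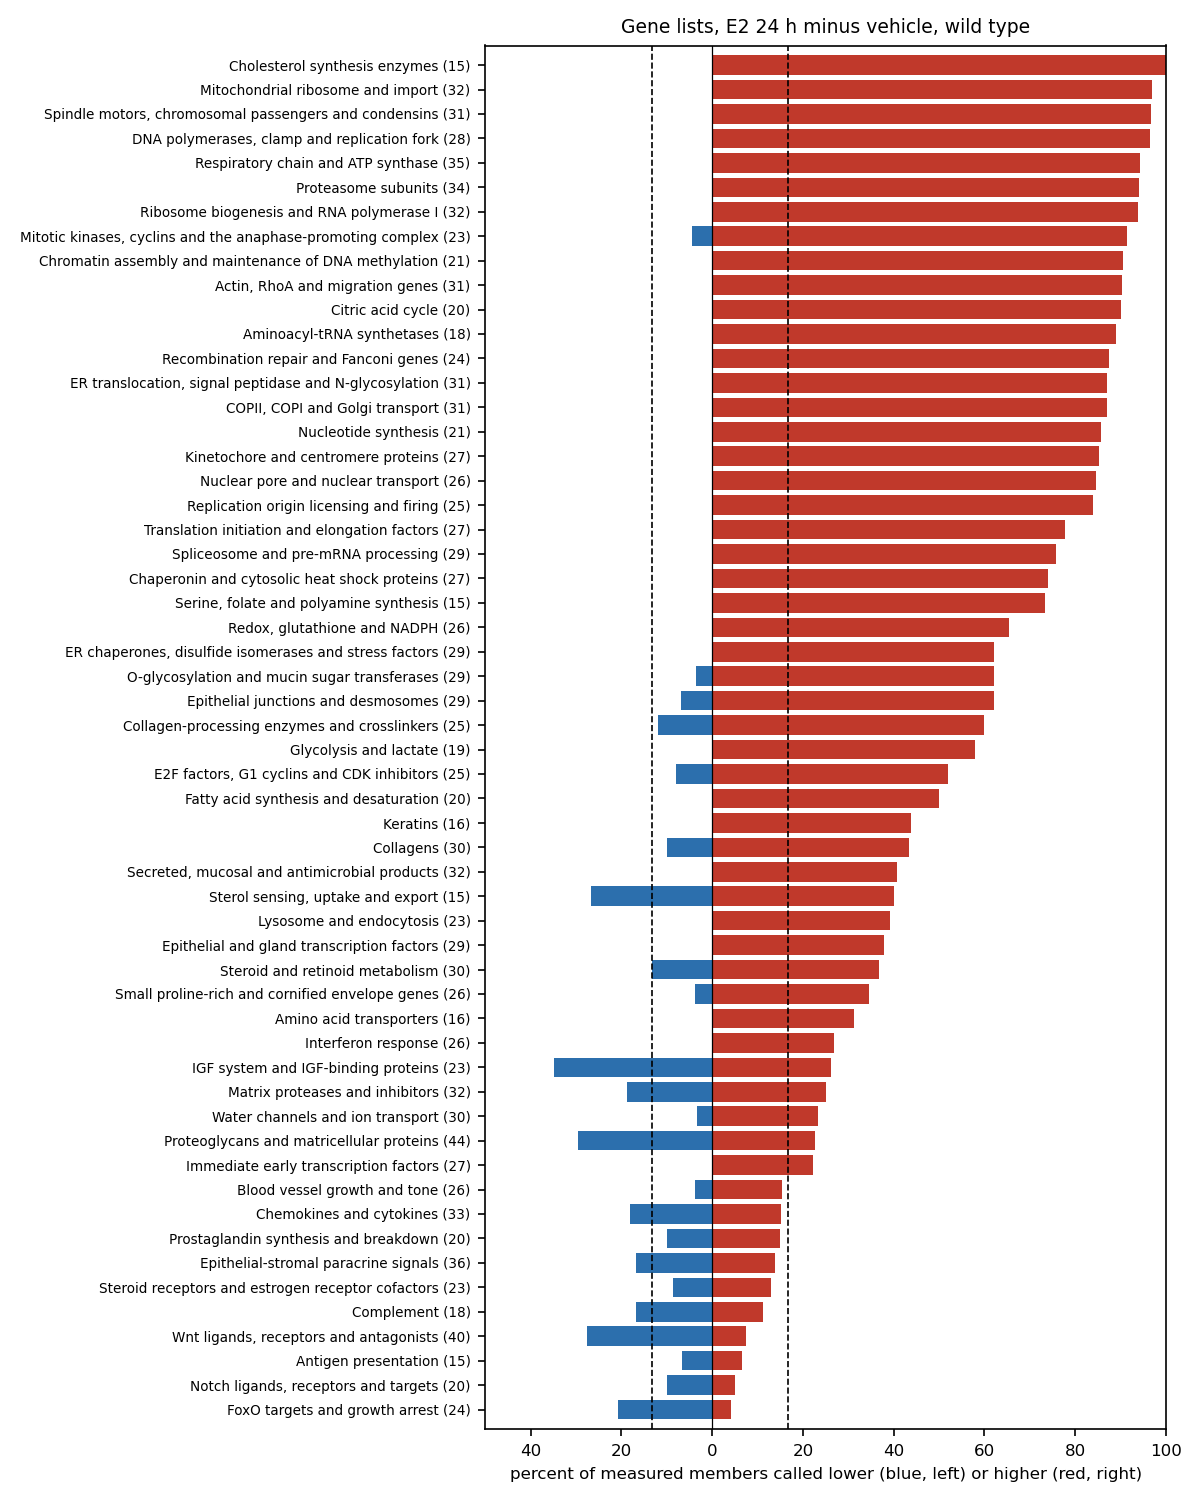
Share of the measured members of each gene list that passed limma's adjusted p in wild-type uterus, E2 24 h against vehicle 24 h. Bars to the right (red) give the percentage higher, bars to the left (blue) the percentage lower, the number of measured members stands in parentheses, and the dashed lines mark the shares over all genes, 16.8% higher and 13.3% lower. Lists of cell division, cholesterol synthesis, protein production and respiration lie far to the right, while Wnt, IGF and matrix lists extend to both sides.

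Genes of chromosome separation rose together. Of the 23 measured mitotic kinases, cyclins and anaphase-promoting factors 21 were higher and 1 lower (median log2 change 2.13), as were 23 of 27 kinetochore genes (1.51) and 30 of 31 spindle and condensin genes (2.46), none of these lower. The ubiquitin-conjugating enzyme Ube2c, which marks cyclins for destruction at anaphase, was at 7.88, 7.41 and 7.54 after vehicle and at 12.80, 14.29 and 13.44 after E2. Cyclin B2 (Ccnb2), a partner of the mitotic kinase Cdk1, moved from 5.92, 6.26 and 5.87 to 11.14, 11.59 and 11.75. In both genes every E2 array lay far above every vehicle array. The changes were 5.90 ± 0.53 (SE) for Ube2c, 59.7-fold, and 5.48 ± 0.44 for Ccnb2, 44.5-fold. The spindle motor Kif11, which pushes the spindle poles apart, rose 22-fold (4.46 ± 0.39, adjusted p 8.37e-09) from 6.79, 6.81 and 6.68 to 10.77, 11.66 and 11.23. The kinetochore motor Cenpe rose 13.1-fold, the polo-like kinase Plk1 10.1-fold and the cytokinesis factor Anln 13.5-fold. Bub1 and Cdc20, which act in the spindle checkpoint, were at or below background on all vehicle arrays and rose at least 7.16-fold and at least 5.82-fold. The exception was securin (Pttg1), which holds the chromatids together until anaphase, with levels of 9.83, 9.44 and 9.60 after vehicle and 8.79, 9.12 and 9.01 after E2 (-0.65 ± 0.22, adjusted p 0.0247). Its groups did not overlap, but the call was lost without vehicle replicate 1 (-0.55) and without E2 replicate 1 (-0.56) or 3 (-0.67).

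Because these mitotic genes moved together, the 250 bases before their transcription starts (RefSeq, GRCm38.p6) were searched for 2 short motifs known from cell cycle promoters, on both strands. They were CCAAT, the letters bound by the factor NF-Y, and TTTGAA or TTCGAA, the cell cycle genes homology region. CCAAT was present in 37.5% of all 27025 promoters and in 15 of the 18 promoters found for called mitotic kinases and cyclins, 9 of 20 for kinetochore genes and 15 of 25 for spindle genes. TTTGAA or TTCGAA was present in 19.6% of all promoters and in 8 of 18, 4 of 20 and 12 of 25 of these. The promoters of the 2 largest rises hold both, and are printed 5′ to 3′ on the strand of the gene with the matches in capitals: Ube2c at chr2:164769679-164769928, plus strand, and Ccnb2 at chr9:70421555-70421804, minus strand.
Ube2c: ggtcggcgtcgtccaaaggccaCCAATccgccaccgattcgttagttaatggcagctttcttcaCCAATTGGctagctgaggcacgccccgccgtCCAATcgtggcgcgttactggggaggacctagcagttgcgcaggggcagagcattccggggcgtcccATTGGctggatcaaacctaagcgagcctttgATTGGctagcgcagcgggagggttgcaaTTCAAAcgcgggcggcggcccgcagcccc
Ccnb2: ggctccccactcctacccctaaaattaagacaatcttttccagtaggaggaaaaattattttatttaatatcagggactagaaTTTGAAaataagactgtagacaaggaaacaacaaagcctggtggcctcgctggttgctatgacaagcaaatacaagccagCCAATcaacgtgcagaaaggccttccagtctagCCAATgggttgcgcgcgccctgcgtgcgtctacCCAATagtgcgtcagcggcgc
In Ube2c the sequence TTCAAA, the reverse complement of TTTGAA, begins 29 bases before the start and CCAAT or its reverse complement ATTGG occurs 6 times, at 228, 186, 183, 155, 88 and 57 bases, the pair at 186 and 183 overlapping. In Ccnb2 the TTTGAA lies farther out, at 167 bases, and CCAAT occurs at 87, 54 and 21 bases. A match is a run of letters, and the arrays do not measure whether a factor was bound to it.

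Most DNA replication genes rose. Of 25 measured genes of origin licensing and firing 21 were higher (median 1.79), of 28 polymerase, clamp and fork genes 27 (1.22), of 21 nucleotide synthesis genes 18 (1.25), of 21 genes of chromatin assembly and DNA methylation upkeep 19 (1.32), and of 24 recombination and Fanconi genes 21 (0.94), with 0 lower in any of the 5 lists by limma. Mcm3, a subunit of the replicative helicase, was at 7.44, 6.90 and 6.88 after vehicle and at 10.65, 10.68 and 10.70 after E2. The 3 E2 values lay within 0.05 of each other and more than 3 log2 units above all vehicle values, a 12.1-fold rise (3.60 ± 0.22, adjusted p 4.04e-11). Mcm6 rose 6.81-fold, Mcm5 5.96-fold, Mcm2 5.54-fold and Mcm4 4.9-fold. Geminin (Gmnn), which blocks a second round of licensing, rose 5.34-fold beside them. Topoisomerase 2 alpha (Top2a), which untangles replicated chromosomes, moved from 8.37, 8.16 and 7.68 to 12.49, 12.96 and 12.86, a 26-fold rise (4.70 ± 0.57, adjusted p 1.03e-06). Ribonucleotide reductase supplies the DNA building blocks. Its large subunit Rrm1 rose 12.3-fold, from 8.93, 9.19 and 9.31 to 12.55, 13.06 and 12.68, and its small subunit Rrm2, at or below background after vehicle, rose at least 4.26-fold. The sliding clamp Pcna rose 4.19-fold, with vehicle arrays between 12.40 and 12.77 and E2 arrays between 14.46 and 14.79. The maintenance methyltransferase Dnmt1 rose 4.68-fold and its partner Uhrf1 6.71-fold.

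The genes that decide entry into the cycle were more mixed. Of 25 measured E2F factors, G1 cyclins and inhibitors of cyclin-dependent kinases, 13 were higher and 2 lower, with a median change of 0.53. E2f8, a repressor of the E2F family, rose at least 5.39-fold from levels at or below background. The G1 kinase Cdk4 was at 10.09, 10.56 and 10.71 after vehicle and at 11.97, 12.36 and 12.08 after E2, a 3.21-fold rise. The kinase inhibitor Cdkn1a (p21) rose 3.7-fold (1.89 ± 0.50, adjusted p 0.00584) at the same time, from 8.40, 7.83 and 8.45 to 9.69, 10.31 and 10.35. Another inhibitor, Cdkn1c (p57), fell 2.09-fold, from 8.94, 8.51 and 8.45 to 7.50, 7.72 and 7.49. Neither gene's groups overlapped. The 2 lower calls of this list became 6 after quantile normalization. Cyclin D1 and cyclin B1 were matched to several gene symbols on the array and were not tested.

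E2F factors are the best known regulators of replication genes, and the letters TTTGGCGC, TTTCGCGC, TTTCCCGC and TTTGCCGC, on either strand, stand for their site. At least one of these was present in 2.16% of all promoters, in 5.01% of those of called higher genes (163 of 3254), in 3 of 15 licensing genes (Cdc6, Mcm5 and Mcm6) and in 3 of 23 polymerase and fork genes (Pola1, Rfc3 and Topbp1). The Mcm6 promoter, chr1:128359706-128359955 on the minus strand, holds 3 such matches and is shown for that reason.
Mcm6: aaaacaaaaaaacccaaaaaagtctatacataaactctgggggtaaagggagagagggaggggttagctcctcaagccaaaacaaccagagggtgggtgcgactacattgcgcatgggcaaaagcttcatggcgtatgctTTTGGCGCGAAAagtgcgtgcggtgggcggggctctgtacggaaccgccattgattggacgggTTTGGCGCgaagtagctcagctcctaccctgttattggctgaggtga
The pair in the run TTTGGCGCGAAA overlaps, being TTTGGCGC at 110 and the reverse complement of TTTCGCGC at 106 bases before the start, and the last TTTGGCGC lies at 47 bases. Most replication genes that rose hold none of these exact letters in the window.

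All 15 measured enzymes of cholesterol synthesis were higher after E2, with a median change of 2.07. Farnesyl diphosphate synthase (Fdps), which builds the farnesyl unit for squalene, was at 7.34, 6.90 and 7.05 after vehicle and at 12.10, 12.29 and 12.44 after E2, 36.2-fold higher (5.18 ± 0.36, adjusted p 3.32e-10). Hydroxymethylglutaryl-CoA synthase (Hmgcs1), an early step of the pathway, moved from 9.22, 9.17 and 9.08 to 13.02, 13.06 and 13.27, 15.5-fold. Replicates of each group lay close together in both genes, with a wide gap between the groups. Idi1 rose 17.4-fold, squalene epoxidase (Sqle) 15-fold, the demethylase Cyp51 14.2-fold and Nsdhl 8.53-fold.

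Sterol sensing genes moved in both directions, 6 of 15 higher and 4 lower. The sterol-regulated transcription factor Srebf2 rose 6.42-fold (2.68 ± 0.30, adjusted p 2.67e-07), from 8.04, 8.57 and 8.61 to 10.88, 11.18 and 11.21. Its retention factor Insig1 rose 4.56-fold, its escort Scap 1.87-fold and the sterol carrier Stard4 4.25-fold. The cholesterol exporter Abca1 went the other way, from 10.58, 11.32 and 11.47 to 8.70, 8.38 and 8.25, 6.4-fold lower (-2.68 ± 0.36, adjusted p 3.48e-06). Mylip, a ubiquitin ligase, fell 2.27-fold and the exporter Abcg1 1.67-fold. All 3 of these are known targets of the liver X receptors. With E2 replicate 1 alone the counts were 3 higher and 2 lower. Fatty acid synthesis and desaturation genes were higher in 10 of 20 cases (6 with replicate 1 alone), with Acsl5 up 5.36-fold, Elovl1 4.5-fold and Fads2 3.47-fold.

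The letters TCACNCCAC, in either direction, are the sterol response element through which Srebf2 acts. They were present in 1.22% of all promoters (331), in 1 of the 12 promoters found for called cholesterol enzymes and in 0 of the 4 found for sterol sensing genes. That match lies in Hmgcs1, 137 bases before the start, in the window chr13:119690101-119690350 on the plus strand.
Hmgcs1: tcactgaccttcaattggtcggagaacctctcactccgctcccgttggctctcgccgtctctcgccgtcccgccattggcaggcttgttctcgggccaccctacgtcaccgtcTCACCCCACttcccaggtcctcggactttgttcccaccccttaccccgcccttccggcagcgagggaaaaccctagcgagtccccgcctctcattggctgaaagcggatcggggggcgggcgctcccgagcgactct
The other enzymes with a window found rose without these exact letters in it, which leaves other spellings of the element and sites elsewhere unsearched. For the rest of the 15 called enzymes, Fdps and Sqle among them, no window was found and none was searched.

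The machinery that makes and folds proteins was mostly higher. Of 32 ribosome biogenesis genes 30 were higher (median 1.2), of 18 aminoacyl-tRNA synthetases 16 (1.47), of 27 translation factors 21 (1.2), of 26 nuclear pore and transport genes 22 (1.11), of 27 chaperonin and heat shock genes 20 (1.16), and of 34 proteasome subunits 32 (1.58), with 0 lower in any of these lists by limma. With E2 replicate 1 as the only E2 array ribosome biogenesis had 19 higher calls and translation 13. Fibrillarin (Fbl), which methylates ribosomal RNA, was at 11.81, 12.12 and 11.96 after vehicle and at 14.19, 14.54 and 14.38 after E2, 5.29-fold higher (2.40 ± 0.22, adjusted p 1.87e-08). Psmc5, an ATPase of the proteasome cap, moved from 11.68, 12.15 and 12.31 to 14.78, 14.90 and 14.72, 6.74-fold higher (2.75 ± 0.34). Vehicle replicate 1 was the lowest array in both genes and the gap to the E2 arrays was above 2 log2 units in each. The importin Kpna2, which carries cargo into the nucleus, rose 16.5-fold. The initiation factor Eif5a rose 6.48-fold, glycyl-tRNA synthetase (Gars) 4.85-fold, the chaperonin subunit Cct2 4.24-fold and the mitochondrial chaperonin Hspd1 3.65-fold. Of 29 spliceosome genes 22 were higher (0.90), but 14 after quantile normalization and 12 with replicate 1 alone, so that the size of this group depends on scaling and on the arrays used.

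Most genes of energy metabolism rose with it. Of 35 respiratory chain and ATP synthase genes 33 were higher (median 1.58), of 20 citric acid cycle genes 18 (1.26), of 32 mitochondrial ribosome and import genes 31 (1.17, 18 with replicate 1 alone) and of 19 glycolytic genes 11 (0.74, 7 with replicate 1 alone), with none lower. Citrate synthase (Cs), the entry enzyme of the cycle, was at 9.40, 10.97 and 11.24 after vehicle and at 13.56, 14.17 and 13.92 after E2, 10.2-fold higher (3.35 ± 0.52, adjusted p 2.58e-05). Vehicle replicate 1 lay well below its replicates here. Cox5a, a subunit of cytochrome oxidase, moved from 12.04, 11.17 and 11.22 to 14.56, 14.57 and 14.55, 8.48-fold, with vehicle replicate 1 the highest of its group. The ATP synthase subunit Atp5g1 rose 8.45-fold, the glycolytic kinase Pgk1 8.52-fold and lactate dehydrogenase Ldha 3.52-fold. Of 15 serine, folate and polyamine genes 11 were higher (1.5), with Shmt2 up 6.45-fold and ornithine decarboxylase Odc1, long known as a growth-induced enzyme, up 5.29-fold from 11.79, 11.94 and 11.90 to 14.13, 14.41 and 14.29. Redox genes were higher in 17 of 26 cases (10 with replicate 1 alone). Glutathione reductase (Gsr) led them, from 7.86, 8.44 and 8.40 to 11.13, 10.79 and 11.04, a 6.75-fold rise.

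The secretory pathway was higher from the ribosome dock to the Golgi. Of 31 genes of ER translocation and N-glycosylation 27 were higher (median 1.33), of 31 COPII, COPI and Golgi transport genes 27 (1.29) and of 29 ER chaperone and stress genes 18 (1.1), with none lower. The translocon partner Ssr2 was at 10.64, 11.02 and 11.14 after vehicle and at 13.96, 14.28 and 14.17 after E2, 9.19-fold higher. Rpn1, of the oligosaccharyl transferase, rose 8.95-fold. The receptor Kdelr2, which returns ER proteins from the Golgi, rose 6.75-fold, with vehicle replicate 1 at 13.14 and the other vehicle arrays at 14.56 and 14.87 against 16.83 to 17.03 after E2. Among chaperones, calreticulin (Calr) rose 6.39-fold and the disulfide isomerase P4hb 6.17-fold. Of 29 O-glycosylation genes 18 were higher and 1 lower, with 11 higher after quantile normalization and with replicate 1 alone. The fucosyltransferase Fut2 rose 10.4-fold, from 6.88, 7.11 and 6.75 to 10.40, 9.93 and 10.53, the mucin branching enzyme Gcnt3 9.55-fold and Galnt3 6.58-fold. The lower member was Galnt15, at 8.99, 10.41 and 10.82 after vehicle and 6.90, 6.95 and 6.84 after E2.

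**Figure D2:**
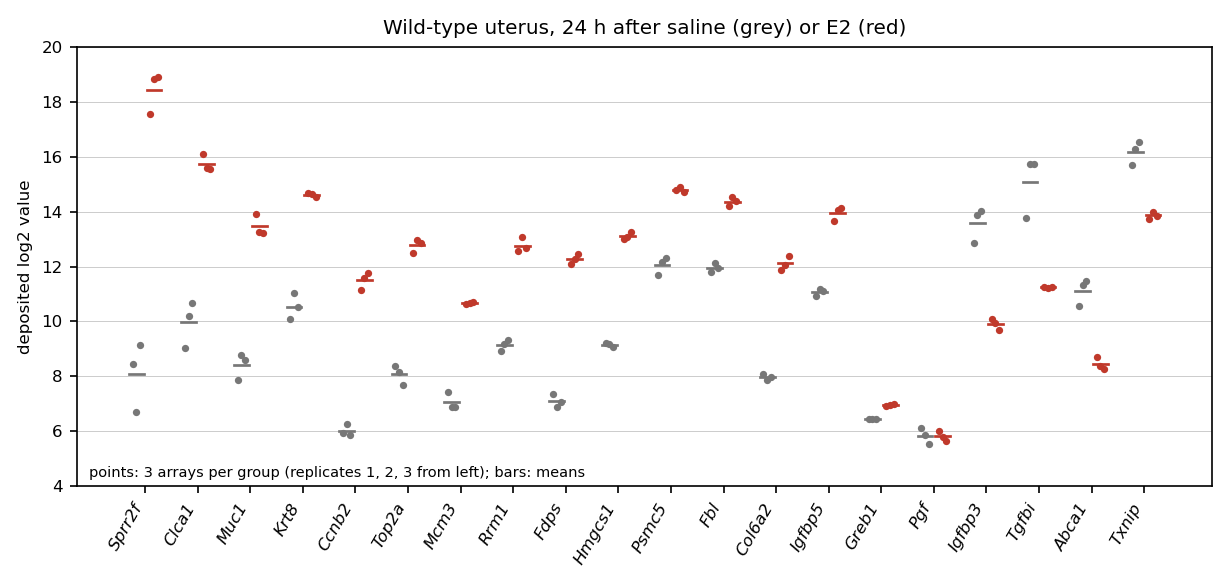
Log2 level of 20 genes on the 3 vehicle arrays (grey) and the 3 E2 24 h arrays (red) of wild-type uterus, each point one array, y axis on the log2 scale of the deposited values. Sprr2f moves from between 6.70 and 9.14 to between 17.56 and 18.89, Mcm3 shows 3 nearly coincident E2 points, and Igfbp3, Tgfbi, Abca1 and Txnip lie lower after E2 without overlap.

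Products of the uterine lining were among the largest rises. Mucin 1 (Muc1), a membrane mucin of the luminal surface, was at 7.87, 8.78 and 8.58 after vehicle and at 13.91, 13.25 and 13.23 after E2, 33.2-fold higher (5.05 ± 0.42, adjusted p 4.76e-09). Muc20 rose 25.8-fold and Muc4 22.2-fold. Clca1, a secreted regulator of chloride channels in mucous epithelia, moved from 9.05, 10.19 and 10.68 to 16.10, 15.59 and 15.56, 54.7-fold. In these genes vehicle and E2 arrays did not overlap, and E2 replicate 1 was as high as or close to replicates 2 and 3. Lactoferrin (Ltf), an iron-binding antimicrobial secretion, rose 26-fold from 9.24, 8.44 and 9.22 to 13.33, 13.90 and 13.76 (4.70 ± 1.40, adjusted p 0.0133). Lipocalin 2 (Lcn2) rose 12.2-fold. Of 32 secreted, mucosal and antimicrobial genes 13 were higher in all (median 0.30) and 8 with replicate 1 alone, with none lower.

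Of 30 ion and water handling genes 7 were higher and 1 lower (median -0.13), a called share near the 30.1% of all genes. Carbonic anhydrase 2 (Car2), which makes bicarbonate, rose 37.7-fold (5.24 ± 0.35), from 9.61, 9.63 and 9.92 to 14.63, 14.99 and 15.25. Car12 rose 13.3-fold and the calcium channel Trpv6 12.8-fold. The chloride channel Cftr moved from 6.12, 6.26 and 6.40 to 9.07, 9.31 and 9.50, an 8.17-fold rise with the smallest standard error of these genes (3.03 ± 0.15, adjusted p 2.86e-12). The calcium-activated chloride channel Ano1 was the lower one, 2.29-fold. The water channel Aqp5 was not called, its vehicle and E2 arrays overlapping around means of 6.11 and 6.48.

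Keratins separated by kind. The simple-epithelium keratins were high on all 3 E2 arrays: Krt8 was at 10.08, 11.02 and 10.52 after vehicle and at 14.67, 14.63 and 14.52 after E2 (16.7-fold, 4.06 ± 0.39, adjusted p 3.62e-08), Krt19 rose 8.51-fold and Krt7 8.22-fold. The stratified-epithelium keratins followed the array rather than the group. Krt14 was at 6.30, 5.53 and 5.43 after vehicle and at 5.60, 10.80 and 9.49 after E2, and Krt13 at 6.44, 6.13 and 6.0 and then 6.18, 11.10 and 9.83. Replicate 1 of E2 lay among the vehicle arrays in both genes. Both were called over the 3 arrays (adjusted p 0.0299 and 0.0132), but replicate 1 alone gave changes of -0.16 and -0.01, and Krt14 also lost its call without vehicle replicate 2 (2.76) or 3 (2.71). Krt5 (4.57 ± 2.07, adjusted p 0.0993) was not called. In all, 7 of 16 measured keratins were higher (median 1.46), and 4 with replicate 1 alone, without replicate 2, or in a fit of vehicle and E2 24 h arrays alone.

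Levels of Krt5 above 9 occurred on 9 of the 30 arrays of the series, in 6 groups and both genotypes. They included 2 of 3 E2 24 h and 2 of 3 IGF1 24 h arrays of wild-type uterus and 0 of 3 vehicle arrays. Krt15, looked at after these values were seen, was at 6.48, 12.11 and 11.13 on the E2 arrays. Upk3a, a defining marker of bladder lining, was at or below background on all 6 wild-type arrays of the comparison. The mean of the 9 measured markers of bladder and vagina epithelium was 6.16, 5.81 and 5.65 after vehicle and 5.76, 8.10 and 7.47 after E2. The part of such cells in the results was not tested beyond leaving arrays out.

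**Figure D3:**
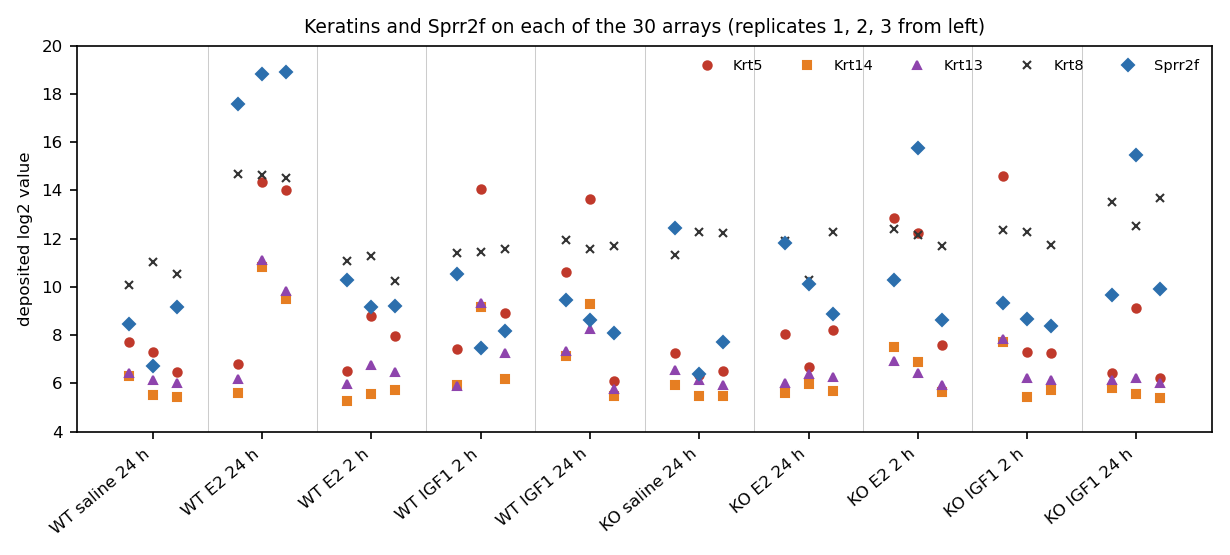
Log2 levels of Krt5, Krt14, Krt13, Krt8 and Sprr2f on all 30 arrays, by group, with replicates 1 to 3 from left to right. Krt5, Krt14 and Krt13 are high on E2 24 h replicates 2 and 3 of wild-type uterus and low on replicate 1, whereas Krt8 and Sprr2f are high on all 3.

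The small proline-rich proteins, crosslinked into the inner face of the cell envelope, contained the single largest change. Sprr2f moved from 8.45, 6.70 and 9.14 to 17.56, 18.82 and 18.89, 1290-fold on the scale of the deposited values (10.33 ± 1.55, adjusted p 1.74e-05). Sprr2b moved from 7.51, 7.05 and 7.89 to 14.28, 16.82 and 15.33, and Sprr1a, at or below background after vehicle, reached 12.61, 13.61 and 13.16, at least 129-fold. E2 replicate 1 was the lowest of its group in all 3 but stood far above every vehicle array. Sprr2d was at 5.02, 5.08 and 4.78 after vehicle and at 6.11, 12.09 and 9.24 after E2, much lower on replicate 1 than on the others, and its call was lost without E2 replicate 2 (2.71). Of 26 measured genes of the small proline-rich and cornified envelope list 9 were higher and 1 lower (median 0.26, 5 higher with replicate 1 alone), and 12 were at or below background on all 6 arrays. Sprr2 genes are near copies of each other, so that their probes may share signal and the split between members is uncertain.

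Because several Sprr2 genes rose, the promoters of this family were compared. The octamer ATTTGCAT, chosen after the sequences had been seen, occurs on either strand in 1.81% of all promoters (490) and in 6 of the 7 found for called members, Sprr2b, Sprr2d, Sprr2e, Sprr2f, Sprr2h and Sprr2i. The 2 members with the largest changes are shown, Sprr2f at chr3:92364937-92365186 and Sprr2b at chr3:92316455-92316704, both on the plus strand, with the octamer in capitals.
Sprr2f: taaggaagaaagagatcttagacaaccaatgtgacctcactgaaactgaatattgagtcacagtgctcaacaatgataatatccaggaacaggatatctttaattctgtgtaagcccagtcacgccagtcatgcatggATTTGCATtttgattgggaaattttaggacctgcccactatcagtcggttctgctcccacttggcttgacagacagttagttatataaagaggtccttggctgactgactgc
Sprr2b: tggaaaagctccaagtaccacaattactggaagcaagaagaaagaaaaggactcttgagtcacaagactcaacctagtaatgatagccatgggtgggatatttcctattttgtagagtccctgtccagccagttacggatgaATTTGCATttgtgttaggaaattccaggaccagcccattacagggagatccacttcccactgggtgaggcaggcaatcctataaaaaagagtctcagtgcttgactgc
The octamer lies 112 bases before the start in Sprr2f and 108 bases in Sprr2b. As near copies these promoters share much of their sequence, so shared letters are not independent observations. The full consensus estrogen response element, an inverted repeat with a 3-base spacer searched without mismatch, was in 18 of the 27025 promoters, in 0 of the 3254 promoters of called higher genes and in 0 of the 16 found for the largest rises.

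Cell contact genes and some epithelial regulators were also called. Of 29 junction and desmosome genes 18 were higher and 2 lower (median 0.67, 11 higher with replicate 1 alone). E-cadherin (Cdh1) was at 10.15, 11.07 and 10.79 after vehicle and at 13.66, 13.51 and 13.43 after E2, 7.25-fold higher. Claudin 7 (Cldn7) rose 8.01-fold and Epcam 5-fold. Claudin 5, of the endothelium, was one of the lower genes (-0.79), a call lost without vehicle replicate 3 (-0.57). Among 29 epithelial and gland transcription factors 11 were higher, with a median of 0.21. Elf3, an ETS factor of epithelia, moved from 7.39, 7.04 and 7.01 to 10.83, 11.51 and 11.56, 17.8-fold (4.15 ± 0.38). The splicing regulator Esrp1 rose 6.29-fold and Klf4 4.16-fold. Of 31 actin, RhoA and migration genes 28 were higher (1.31, 17 with replicate 1 alone). Ezrin (Ezr), which ties membrane to actin, rose 5.24-fold from 9.08, 9.25 and 9.25 to 11.62, 11.43 and 11.70, and annexin 2 (Anxa2) rose 6.67-fold.

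Several fibrillar and microfibrillar collagens rose. Of 30 collagen genes 13 were higher and 3 lower (median 0.20), with 1 lower without vehicle replicate 1 or after centring the arrays. Col6a2, of the microfibrillar collagen VI, was at 8.10, 7.86 and 7.97 after vehicle and at 11.89, 12.05 and 12.40 after E2, 17.6-fold higher (4.14 ± 0.24, adjusted p 2.67e-11). Its partners Col6a1 and Col6a3 rose 8.45-fold and 6.69-fold. The main collagen of bone and skin, Col1a1, rose 10.1-fold, its second chain Col1a2 5.63-fold and Col3a1 4.89-fold, the last from 10.56, 10.41 and 10.51 to 12.74, 12.87 and 12.74. In each of these the groups did not overlap. Of 25 collagen-processing genes 15 were higher and 3 lower (median 0.78, 8 and 1 with replicate 1 alone). The collagen chaperone Serpinh1 rose 7.6-fold, from 12.96, 13.67 and 13.48 to 16.45, 16.24 and 16.20, and Pcolce, which aids removal of the propeptide, 3.23-fold. P3h2, a prolyl hydroxylase, fell 2.42-fold.

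Other matrix genes moved both ways, 10 of 44 proteoglycan and matricellular genes higher and 13 lower. With replicate 1 alone the counts were 1 and 5, and without E2 replicate 2 or 3 the higher count was 6. Sparc, a collagen-binding matricellular protein, was at 13.58, 14.17 and 14.25 after vehicle and at 16.22, 16.37 and 16.28 after E2, 4.9-fold higher (2.29 ± 0.30), and fibronectin (Fn1) rose 4.12-fold. Tgfbi, an adhesion protein induced by TGF-beta, fell 14.2-fold (-3.83 ± 0.51, adjusted p 3.39e-06), from 13.78, 15.72 and 15.73 to 11.24, 11.23 and 11.27. The 3 E2 arrays were nearly equal, while vehicle replicate 1 was nearly 2 units below its replicates. Sparcl1, a relative of Sparc, fell 3.41-fold from 17.71, 18.60 and 18.71 to 16.54, 16.66 and 16.52. Decorin (Dcn), a small proteoglycan that coats collagen fibrils, was at 17.67, 18.61 and 18.59 and then at 17.21, 17.07 and 17.09 (2.25-fold lower, adjusted p 0.00475). Among 32 matrix proteases and inhibitors 8 were higher and 6 lower (3 and 1 with replicate 1 alone). The inhibitor Timp1 rose 3.66-fold, the collagenolytic cathepsin Ctsk 3.51-fold, and the stromelysin Mmp11 fell 2.86-fold.

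In the IGF system, which relays estrogen action between stroma and epithelium, 6 of 23 genes were higher and 8 lower (median -0.19). The binding protein Igfbp3 fell 12.8-fold (-3.68 ± 0.49, adjusted p 4e-06), from 12.85, 13.87 and 14.04 to 10.10, 9.93 and 9.68. Igfbp5 rose 7.31-fold (2.87 ± 0.55, adjusted p 0.000319), from 10.92, 11.19 and 11.11 to 13.65, 14.05 and 14.13. The 2 binding proteins moved in opposite directions, each without overlap of the groups. The protease Pappa, which frees IGF from its binding proteins, fell 4.79-fold, its inhibitor Stc1 6.7-fold and the adaptor Irs2 4.3-fold. Irs2 was at 11.42, 10.24 and 11.04 after vehicle and at 8.47, 8.80 and 9.11 after E2.

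Signals between the layers moved both ways, with counts that depended on scaling. Of 40 Wnt ligands, receptors and antagonists 3 were higher and 11 lower (median -0.26). After centring the counts were 3 and 4. The lower count was 6 with replicate 1 alone, 6 without vehicle replicate 2 or 3, and 5 or 6 without E2 replicate 1 or 3. Sfrp2, a secreted Wnt antagonist, fell 4-fold (-2.00 ± 0.22, adjusted p 2.23e-07), from 9.97, 10.76 and 10.80 to 8.49, 8.65 and 8.40, and the stem-cell receptor Lgr5 2.04-fold. Wnt5a, a stromal ligand, rose 2.6-fold from 7.77, 8.07 and 7.94 to 9.36, 9.26 and 9.29. Wnt4 and Wnt7a were not called (-0.28 and -0.62, adjusted p 0.218 and 0.116). Of 36 paracrine signals 5 were higher and 6 lower, and after centring 5 and 3, beside 16.8% higher and 13.3% lower over all genes on the deposited scale. Ptch1, the hedgehog receptor and a target of that pathway, fell 4.3-fold from 11.29, 12.82 and 13.05 to 10.17, 10.44 and 10.24, and the receptor Fgfr2 fell 3.28-fold. The hedgehog ligand Ihh (-0.30, adjusted p 0.31) and Lif (0.31, adjusted p 0.26) were not called. The receptor kinases Erbb3 and Erbb2 rose 2.53-fold and 2.36-fold.

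Immune genes changed in a few places. The called shares of the interferon, complement and chemokine lists were near the 30.1% of all genes. Of 26 interferon response genes 7 were higher (median 0.22, and 4 without vehicle replicate 1) and 0 lower by limma. Bst2, a membrane tether for viruses, was at 9.80, 10.38 and 10.60 after vehicle and at 13.10, 12.84 and 12.87 after E2, 6.4-fold higher (2.68 ± 0.45, adjusted p 6.46e-05). The RNA sensor Oas1a rose 4.08-fold and Oas2 3.91-fold. Complement factor B (Cfb) rose 22.1-fold (4.47 ± 0.95, adjusted p 0.000861), from 7.02, 7.56 and 7.84 to 11.92, 11.89 and 12.01, among 2 higher and 3 lower of 18 complement genes. Of 33 chemokines and cytokines 5 were higher and 6 lower. Without vehicle replicate 1 the lower count was 1, and with E2 replicate 1 alone the counts were 3 and 0. The mucosal chemokine Cxcl17 rose 18.3-fold, from 8.35, 9.01 and 9.57 to 13.33, 13.20 and 12.97, the eosinophil attractant Ccl11 6.42-fold and Ccl28 3.97-fold. The dendritic cell gene Clec9a fell 2.19-fold, one of 4 lower among 9 dendritic markers. Another of these, Flt3, was at or below background on all 6 arrays. Of 12 T and NK cell markers 3 were lower, namely Prf1, Klrb1c and Cd4. Prf1 and Cd4 were among the 6 of the 12 at or below background on all 6 arrays. Of 12 neutrophil markers 2 were higher and 0 lower by limma (median -0.07), beside 16.8% higher over all genes. The 2 were Ly6g, at least 2.6-fold, and Ltf, while Mpo, Elane, Ngp and Camp were at or below background. The mean of the 12, Ltf included, was 6.07, 5.58 and 5.85 after vehicle and 6.48, 6.13 and 6.17 after E2.

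Steroid, retinoid and prostaglandin metabolism changed at single enzymes and carriers. Of 30 steroid and retinoid genes 11 were higher and 4 lower (6 and 0 with replicate 1 alone). The retinoic acid carrier Crabp1 was at 6.59, 6.53 and 6.48 after vehicle and at 11.81, 12.47 and 12.51 after E2, 53.1-fold higher (5.73 ± 0.37, adjusted p 1.1e-10). The retinol dehydrogenase Dhrs9 rose at least 9.39-fold and Hsd11b2, which inactivates glucocorticoids, 4.68-fold. Aldh1a2, which makes retinoic acid, rose 3.54-fold, while Aldh1a3, which catalyses the same step, fell 2.84-fold. Carbonyl reductase 2 (Cbr2) rose 27-fold from 9.67, 9.42 and 9.45 to 14.27, 14.18 and 14.35, and the prostaglandin D synthase Hpgds fell 4.67-fold from 9.77, 9.12 and 9.58 to 7.36, 6.99 and 7.45. Of 23 steroid receptors and cofactors 3 were higher and 2 lower, beside 16.8% higher and 13.3% lower over all genes. The lower count was 7 after quantile normalization and 5 without vehicle replicate 1. The mineralocorticoid receptor Nr3c2 fell 2.53-fold, from 7.65, 7.94 and 8.12 to 6.63, 6.57 and 6.48. Among 24 FoxO targets and growth arrest genes 1 was higher and 5 lower (8 lower after quantile normalization, 12 with array weights). The thioredoxin inhibitor Txnip fell 4.96-fold, from 15.69, 16.29 and 16.54 to 13.75, 13.98 and 13.86, and Pik3ip1, an inhibitor of PI3 kinase, 2.3-fold.

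Among the 20 largest falls were several genes outside these lists. Dystrophin (Dmd), which links the muscle cytoskeleton to the matrix, was at 11.92, 12.57 and 12.61 after vehicle and at 9.73, 9.42 and 9.41 after E2, 7.16-fold lower (-2.84 ± 0.27, adjusted p 3.21e-08). The transporter Abca8a fell 8.74-fold, the matrix protein Abi3bp 6.77-fold, the transcription factor Mitf 5.66-fold and Neto2 5.86-fold. Lncpint, a long noncoding RNA, moved from 10.26, 11.53 and 11.49 to 8.53, 8.21 and 8.37. Among the largest rises, the adhesion molecule Ceacam1 moved from 7.61, 7.80 and 7.88 to 12.72, 13.18 and 13.27 (39.2-fold), the tetraspanin Tspan1 rose 28.3-fold and the proliferation antigen Mki67 32.1-fold. None of these groups overlapped. Smooth muscle did not move as a block: the contractile actin Actg2 rose 7.2-fold from 11.58, 12.77 and 12.32 to 15.07, 15.01 and 15.14, beside the fall of dystrophin.

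The direct comparison of 24 h with 2 h of E2 asked which genes had come on or gone off between the early and the late phase. It does not involve the vehicle arrays. Of the 30142 genes 5116 (17.0%) were higher at 24 h and 3149 (10.4%) lower, with 61.9% of the called genes higher by the fit on the deposited values and 51.8% after quantile normalization. Placental growth factor (Pgf), a vascular ligand, was between 11.78 and 12.22 on the 2 h arrays and at 6.0, 5.80 and 5.63 at 24 h, a change of -6.25 ± 0.16 (adjusted p 1.13e-18). Its vehicle arrays read 6.11, 5.86 and 5.53, overlapping the 24 h arrays. Gadd45g fell 54.4-fold between the times, B4galt5 43.4-fold, Tiparp 36.6-fold and Plk2 31.1-fold, and none of these was called against vehicle at 24 h. Greb1, a direct estrogen receptor target, was between 11.20 and 11.34 at 2 h and at 6.92, 6.97 and 7.01 at 24 h (-4.31 ± 0.14). Its vehicle arrays read 6.44, 6.45 and 6.44, below all 3 E2 24 h arrays. The kallikrein Klk1, a tissue protease, was between 14.63 and 15.12 at 2 h and at 12.49, 12.42 and 11.39 at 24 h, still at least 63.2-fold above vehicle, with the reserve that kallikreins are close copies and may share probes.

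Immediate early transcription factors were lower at 24 h than at 2 h in 22 of 27 cases and higher in 0 (median -1.23, limma). Against vehicle 20 of the 27 were higher at 2 h, where 2965 genes were called higher (9.84%) and 2766 lower (9.18%), and 6 of 27 at 24 h. The vehicle arrays were taken 24 h after injection. In the 2 h contrast E2 and the time since injection therefore cannot be told apart. Myc was among those still high, at 10.31, 9.66 and 9.55 after vehicle, at a mean of 11.01 at 2 h and at 11.13, 11.29 and 11.08 at 24 h, with no call between the times (0.15, adjusted p 0.749). Ier3, an early survival gene, was lower at 24 h than at 2 h (-2.07) but still 3.86-fold above vehicle. The inhibitor Cdkn1a showed the same order, with a mean of 13.17 at 2 h.

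Many genes of protein production were already high at 2 h, again set against vehicle arrays taken at 24 h. Of 32 ribosome biogenesis genes 26 were already above vehicle at 2 h (median 0.80), and between 2 h and 24 h 10 were higher and 5 lower with a median of 0.05. Ddx21, a nucleolar helicase, was between 12.19 and 12.37 at 2 h and at 11.55, 11.86 and 11.58 at 24 h (-0.64 ± 0.42, adjusted p 0.297), against 9.19, 9.22 and 9.21 after vehicle. Of 31 spindle genes 1 was above vehicle at 2 h, and 30 were higher at 24 h than at 2 h (median 2.35). For cholesterol enzymes the numbers were 1 and 15 of 15 (2.11), and Fdps, between 7.08 and 7.22 at 2 h, rose by 5.11 ± 0.36 from there. For respiratory chain genes they were 2 and 30 of 35 (1.31). Proteasome genes were partly early, 14 of 34 above vehicle at 2 h and 26 higher at 24 h than at 2 h (1.02). Col3a1 was between 7.78 and 8.55 at 2 h, below all its vehicle arrays, and the 24 h arrays lay 4.70 ± 0.30 above that. Interferon genes gave 1 higher and 7 lower against vehicle at 2 h, and 15 of 26 were higher at 24 h than at 2 h with none lower (1.18).

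**Figure D4:**
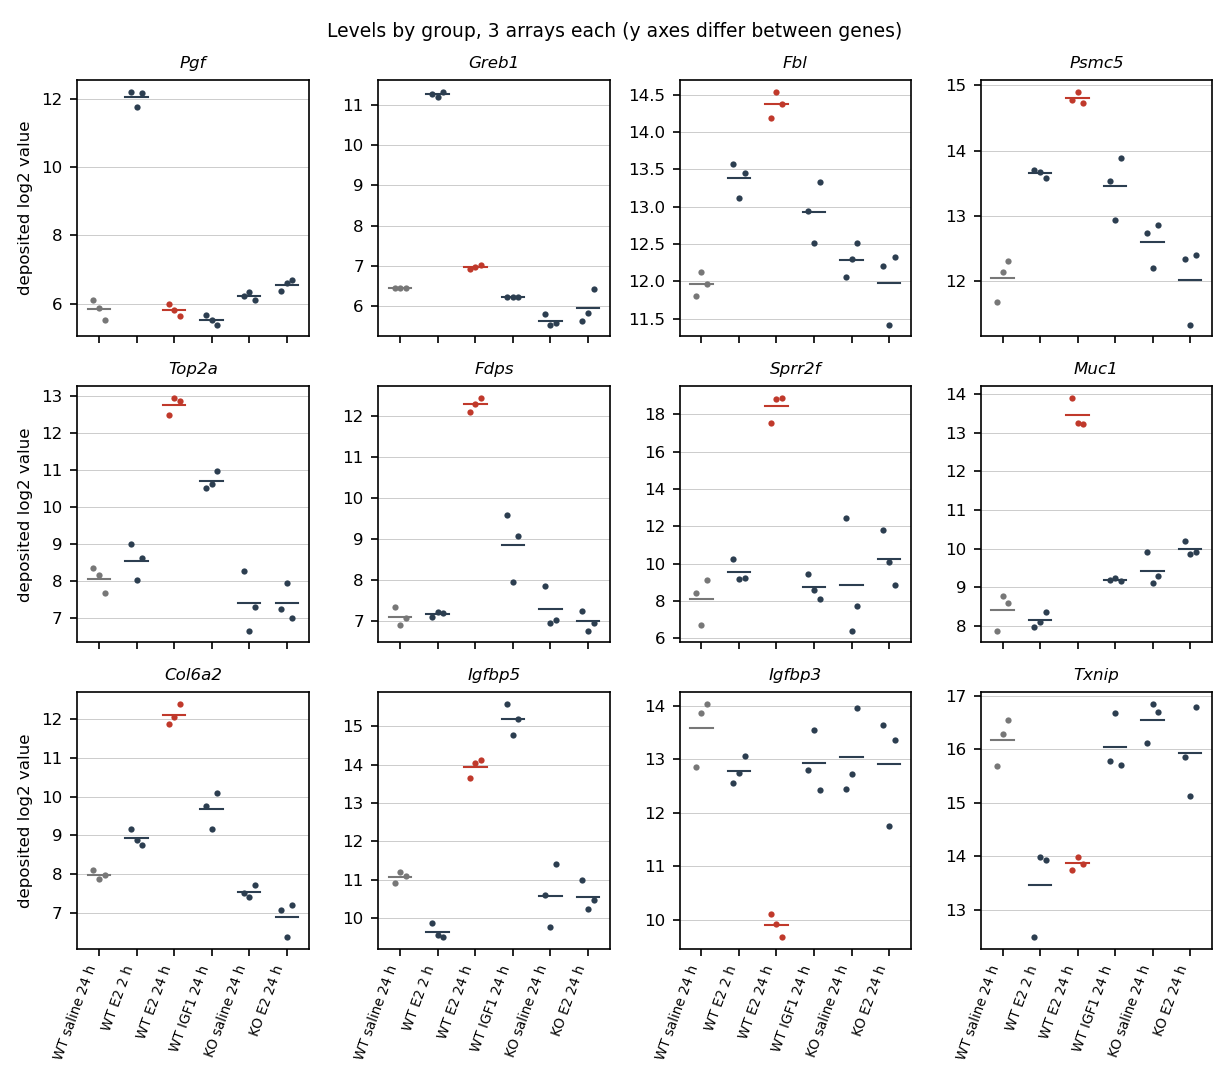
Log2 level of 12 genes in 6 groups: wild-type (WT) uterus after saline 24 h, E2 2 h, E2 24 h and IGF1 24 h, and KO uterus after saline 24 h and E2 24 h. Points are arrays and bars group means, and the y axes differ between panels. Pgf and Greb1 are highest at 2 h, with Greb1 at E2 24 h still slightly above vehicle. Fbl is high at both times, and Top2a and Fdps are high at 24 h with intermediate levels after IGF1. Sprr2f and Muc1 are highest after E2 24 h in wild-type uterus, and Igfbp5 is high after both E2 24 h and IGF1.

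The comparison with IGF1 at 24 h asked how far the growth factor matched the hormone at the same time. IGF1 was given in 3 injections in PBS, and E2 or vehicle in 1 of saline. The agent and the injection scheme cannot be told apart here. E2 gave higher levels than IGF1 for 2287 genes (7.59%) and lower levels for 750 (2.49%). The higher share among called genes was 75.3% on the deposited scale, 85.1% after centring and 65.1% after quantile normalization. The IGF1 arrays themselves were higher than vehicle for 1001 genes (3.32%) and lower for 290 (0.962%). Of the 3037 differences from IGF1 in all, 1880 were called without E2 replicate 2, 1946 without E2 replicate 3, 1583 without IGF1 replicate 2 and 608 with E2 replicate 1 as the only E2 array.

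Cell division lists differed in how many members were called after IGF1. Of 31 spindle genes 24 were above vehicle after IGF1 (median 0.94), and 29 were higher after E2 than after IGF1 (1.59). Of 23 mitotic kinases and cyclins 6 were above vehicle after IGF1 (0.62) and 21 were higher after E2 (1.58), and of 27 kinetochore genes 12 (0.53) and 21 (0.98). Replication genes gave 6 of 25 above vehicle for licensing (0.47) and 12 of 28 for polymerase and fork genes (0.51), with 20 and 22 higher after E2 than after IGF1. Top2a was between 10.51 and 10.99 on the IGF1 arrays, above all vehicle arrays and below all E2 arrays (E2 minus IGF1 2.06 ± 0.57, adjusted p 0.0204). For cholesterol enzymes 5 of 15 were above vehicle after IGF1 and all 15 were higher after E2 than after IGF1 (1.57). Fdps was between 7.93 and 9.57 after IGF1, 3.42 ± 0.36 below E2. Of ribosome biogenesis genes 3 of 32 were above vehicle after IGF1 and 26 were higher after E2 (0.96). Respiration had fewer differences between the treatments, with 19 of 35 above vehicle after IGF1 and 10 higher after E2, and collagen processing had 4 of 25 higher after E2.

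Products of the lining separated the treatments. Of the 26 small proline-rich and cornified envelope genes 0 were called after IGF1 against vehicle and 8 were higher after E2 than after IGF1. Sprr2f was between 8.10 and 9.47 on the IGF1 arrays, within or close to the vehicle range, and 9.70 ± 1.55 lower than after E2 (adjusted p 0.000138). Muc1 was between 9.17 and 9.23 (E2 minus IGF1 4.27 ± 0.42, adjusted p 2.64e-07), and the difference for Clca1 was 5.28 ± 0.68. Of 32 secreted products 1 was above vehicle after IGF1 and 9 were higher after E2 than after IGF1. Of 17 epithelial markers 12 were higher after E2.

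For some stromal and muscle genes the difference between the treatments was not called. Igfbp5 was between 14.79 and 15.59 after IGF1 and at 13.65, 14.05 and 14.13 after E2, a difference of -1.25 ± 0.55 that was not called (adjusted p 0.179) although the arrays did not overlap. Actg2 was between 14.39 and 15.30 after IGF1 (0.23 ± 0.51, adjusted p 0.869) and Fn1 between 13.26 and 14.06 (-0.22). A call that is missing does not show that levels were equal. Genes lower after E2 than after IGF1 included Tgfbi, between 15.57 and 15.74 after IGF1 (-4.43 ± 0.51, adjusted p 2.03e-06), Stc1, between 11.42 and 11.57 (-3.67 ± 0.48), Igfbp3 (-3.03 ± 0.49) and Txnip (-2.18 ± 0.44). Each of these was lower after E2 than after vehicle, while the IGF1 arrays lay near or within the vehicle range, or above it for Stc1. The clock repressor Nr1d1 was also lower after E2 than after IGF1 (-2.03 ± 0.43).

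The difference between the E2 effect in wild-type and in KO uterus asked how much of the response needed the receptor. In KO uterus 0 genes were called for E2 against vehicle at 24 h by limma, although 3735 had an unadjusted p below 0.05, and the median change over all genes was 0.08. The test of the difference between genotypes called 3670 genes with a larger change in wild type (12.2%) and 3002 with a smaller or more negative one (9.96%). The median difference over all genes was -0.19, and centring the arrays moved it by 0.19 and the share of positive differences from 55.0% to 77.4%. KO E2 replicate 2 had an array weight of 0.259, and without it and vehicle replicate 1 of wild type 4061 genes were called. The lower count was 1786 without wild-type vehicle replicate 1, 1948 without wild-type E2 replicate 3, 1933 and 1797 without KO vehicle replicates 2 and 3, and 1627 without KO E2 replicate 2.

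The difference was positive for all 15 cholesterol enzymes (median 2.13), for 30 of 31 spindle genes (2.54), for 20 of 23 mitotic kinases and cyclins (2.36, with 1 negative) and for 20 of 27 kinetochore genes (1.36). Fdps was between 6.95 and 7.85 in KO uterus after vehicle and between 6.75 and 7.24 after E2, and its difference of effects was 5.47 ± 0.51 (adjusted p 1.49e-07). Top2a was between 6.66 and 8.28 after vehicle and between 7.0 and 7.95 after E2 in KO uterus (4.72 ± 0.81). In both genes the KO groups overlapped while the wild-type groups did not. Proteasome genes differed in 31 of 34 cases (1.68), ribosome biogenesis genes in 27 of 32 and respiratory genes in 26 of 35, all with the larger rise in wild type.

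Epithelial products gave mixed results in this test. Muc1 was between 9.10 and 9.90 after vehicle and between 9.86 and 10.21 after E2 in KO uterus, above the wild-type vehicle arrays in both, and its difference of effects was 4.48 ± 0.60 (adjusted p 1.29e-05). Sprr2f varied widely in KO uterus, between 6.40 and 12.42 after vehicle and between 8.87 and 11.81 after E2 (8.91 ± 2.19, adjusted p 0.00554). Single KO arrays outside this test read higher, at 15.74 (E2 2 h replicate 2) and 15.46 (IGF1 24 h replicate 2). Ltf (3.22 ± 1.98, adjusted p 0.233) and Cfb (3.67 ± 1.34, adjusted p 0.0515) did not pass. On the KO arrays taken 2 h after E2, Ltf was at 16.48, 16.69 and 11.91, against 13.33 to 13.90 after E2 24 h in wild type. Of the 32 secreted products 6 had a positive and 2 a negative difference, beside 12.2% and 9.96% over all genes. Of the 17 epithelial markers 13 had a positive and 0 a negative difference by limma (median 2.65). Among the falls, Igfbp3 was between 12.45 and 13.97 after vehicle and between 11.76 and 13.64 after E2 in KO uterus (difference -3.55 ± 0.70), and Tgfbi between 17.31 and 18.28 and between 16.19 and 17.88 (-3.22 ± 0.72). Igf1 (1.03 ± 0.40, adjusted p 0.0662) and Txnip (-1.68 ± 0.62, adjusted p 0.0534) had wild-type changes whose difference from KO was not called.

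Likeness over the 10 group means of the series was searched only among genes called between E2 24 h and vehicle in wild-type uterus. Of these, the genes whose levels were most like Sprr2f were Slc28a3 (Pearson r 0.984), Sprr2b (0.977), Ceacam1 (0.969), Sprr2g and Galnt12 (0.968 each). Those most like Top2a were Mki67 (0.998), Kif11 (0.987), Cenpf and H2bc1 (0.986 each) and Kif15 (0.983). These coefficients describe 10 means that share arrays and scaling, and they carry no test. Choosing genes by their change after E2 24 h favours high coefficients in advance.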

How the data were processed

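RNA of whole uterus was measured on 30 Affymetrix arrays, 3 in each of 10 groups, grouped by their titles. The authors deposited a table of log2 values for 72688 probe sets. How these were summarised and normalised is not given in the sources used here. Probe sets were named through GEO's platform annotation with symbols updated by Entrez ID; 30604 had 1 symbol, 2146 had several or none and 39938 were not listed, and one probe set was kept for each of 30142 genes. Group means over all 30 arrays were fitted with limma 3.58.1 (R 4.3.3, 20 residual degrees of freedom), p-values were adjusted by Benjamini-Hochberg over all genes of a comparison, and genes below 0.05 were called. With 3 arrays against 3, an exact permutation test cannot go below 0.1 for a single gene. Background is the 95th percentile of 1225 olfactory receptor genes on each array. The number of arrays limits the precision.

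In data simulated for the E2 24 h against vehicle comparison on 30142 genes, the fit recovered 20% of changes of 0.5 log2 units, 82% of 1, 98% of 2 and 100% of 3, with 8 false calls. The simulated noise was independent, normal and equal in all groups, with 50 genes changed at each size. In the real data the median standard deviation was 0.236 after vehicle and 0.145 after E2, so these rates need not hold there. The named genes were the 20 largest called rises and falls of this comparison, the 10 largest of each other test, and up to 6 called members of each list with opposite members, by size of change. The members of the comparison and the gene lists were chosen with earlier results of these data known. Motifs were searched in RefSeq windows of 250 bases with Python 3.11.15, and figures were drawn with matplotlib 3.10.9. Alternatives tried were scaling, dim genes, probe set choice, groups in the fit, prior, array weights, replicate block and arrays left out.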

Additional observations from a re-analysis of the deposited data

Results flagged for a closer look

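The E2 effect at 24 h differed between wild-type and KO uterus by limma's interaction test in 3670 genes with a positive difference and 3002 with a negative one. Among rises, the difference of log2 changes was 8.91 for Sprr2f, 8.07 for Sprr2b, 7.17 for Sprr1a, 6.35 for Clca1, 6.25 for Adgrg7, 6.11 for the linker histone H1f5, 6.01 for Ube2c, 5.95 for Klk1, 5.85 for Ccnb2 and 5.82 for Crabp1. Adgrg7, an adhesion receptor, was at 5.66, 5.75 and 5.91 after vehicle and at 10.88, 12.23 and 12.19 after E2 in wild-type uterus, and between 5.17 and 5.53 after E2 in KO uterus. Among falls it was -4.23 for Cdr1, -3.57 for Pamr1, -3.55 for Igfbp3, -3.22 for both Tgfbi and Apod, -3.13 for Abi3bp, -3.08 for Speer8-ps1, -3.03 for Abca8a, -2.96 for Speer4e and -2.70 for Speer4c. Cdr1 was at 10.60, 8.70 and 8.48 after vehicle in wild-type uterus, so that vehicle replicate 1 was its highest array, and Speer, Sprr2, histone and kallikrein genes have close copies that may share probes.

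Probe sets outside the gene table also moved between vehicle and E2 in wild-type uterus. Of the 2146 with several symbols 279 were called higher and 288 lower, and of those without an annotation entry 1439 were called higher and 6979 lower. No gene is named from them.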

How the results depend on the processing

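For E2 24 h against vehicle, keeping only E2 replicate 1 gave 3379 calls, 2474 higher and 905 lower. Lower calls were 2561 after centring and 2413 with only the compared groups fitted. Leaving out 1 array gave 6943 to 9335 calls, 4133 to 4730 higher and 2547 to 4605 lower. Against E2 2 h, replicate 1 alone gave 4156 calls, 2643 higher and 1513 lower, and array weights gave 5107 lower. Against IGF1, replicate 1 alone gave 608 calls, 565 higher and 43 lower, array weights 5495, 3534 and 1961. Lower calls were 445 after centring and 1285 with only the compared groups. Leaving out 1 array gave 1583 to 2626 calls, 1312 to 2108 higher and 271 to 542 lower. For the genotype difference, calls were 4046 with only the compared groups, 4061 without both arrays of lowest weight and 2605 with replicate 1 alone (1888 higher, 717 lower). Its lower calls were 1349 after centring, 1849 without dim genes, 1216 with only the compared groups, 1335 without both arrays and 1627 to 4095 leaving out 1 array. Fewer arrays or genes enter these alternatives, except for centring and weights. Why the counts changed was not tested for any of them.

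Against vehicle, Krt13, Krt14 and Krt5 turned to -0.01, -0.16 and -0.36 with replicate 1 alone. Pgf (-0.02) turned to 0.08 after centring, 0.13 after quantile normalization, 0.17 with weights, 0.11 without both arrays and 0.16 with replicate 1 alone, and lay between -0.18 and 0.11 leaving out 1 array. Xist (1.86, not called) turned to -0.51 with weights and to -0.79 without both arrays, and lay between -0.79 (without vehicle replicate 1) and 3.19 leaving out 1 array. Of 418 named genes 394 kept direction and call after centring, 388 after quantile normalization and 319 with replicate 1 alone, which was chosen after seeing the data, as was the octamer.

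Replicate numbers are shared by the groups. Between the vehicle and E2 24 h arrays of wild-type uterus, deviations of same-numbered arrays from their group means correlated at -0.008 to 0.048. No other groups were checked, so these values do not settle whether the numbers pair the samples. The replicate block gave 8919, 8128, 3017 and 6509 calls for the 4 tests. Levels near background limit what can be seen of dim genes.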
